A study of Mus musculus with 11 samples.

Results

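The cells described here are putative interdental precursors of the mouse cochlea at embryonic day 14 (E14), selected on the deposited values of 6 genes. A cell was kept if it held Otoa, held Foxq1 or Smoc2 or both, held no Atoh1 and no Bmp4, and had an Oc90 value under 2.5 on the deposited natural-log scale. The gate kept 241 of 5253 E14 cells, 103 of 2198 (4.69%) in replicate 1 and 138 of 3055 (4.52%) in replicate 2. The whole series holds 30634 cells at 4 ages.

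Cells were dissociated from the cochlear sensory epithelium and captured as single cells in droplets (10x Genomics Chromium), where each transcript is counted once by its unique molecular identifier (UMI). All mice were wildtype CD1, with 2 libraries at E14, 3 at E16, 4 at postnatal day 1 (P1) and 2 at P7. Each embryonic library pooled cochleae of a litter of either sex, so that no value here belongs to a single embryo. A library is the replicate in every test, and the p-values measure only the spread between these libraries.

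Interdental cells lie on the spiral limbus at the medial edge of the cochlear duct floor, where they secrete matrix and hold the inner edge of the tectorial membrane. Otoa encodes otoancorin, the protein that anchors that membrane to their apical surface. At E14 the floor is still a simple epithelium in which prosensory cells are flanked medially by Kölliker's organ and laterally by the lesser epithelial ridge, and the roof expresses the otoconin gene Oc90.

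The gated cells held 506153 and 762897 UMIs in replicates 1 and 2, out of 10284467 and 14420835 in the whole libraries. Their median depth was 3862 and 3832 UMIs per cell, against 3476 and 3279 in the other cells, and the effect of weighting the other cells to the depth of the gated ones is given with the counts below. More than 3000 genes were detected in 60 gated cells, 21 and 39 by replicate, and in 832 other cells, and no doublets were called or removed. The libraries shared 11 cell barcodes, and 1 of these belonged to a gated cell. Smoc2 and Foxq1 were both detected in 133 gated cells, Smoc2 alone in 92 and Foxq1 alone in 16. A single Otoa UMI carried 148 of the 241 cells through the gate, and 93 cells had 2 or more.

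**Figure D1:**
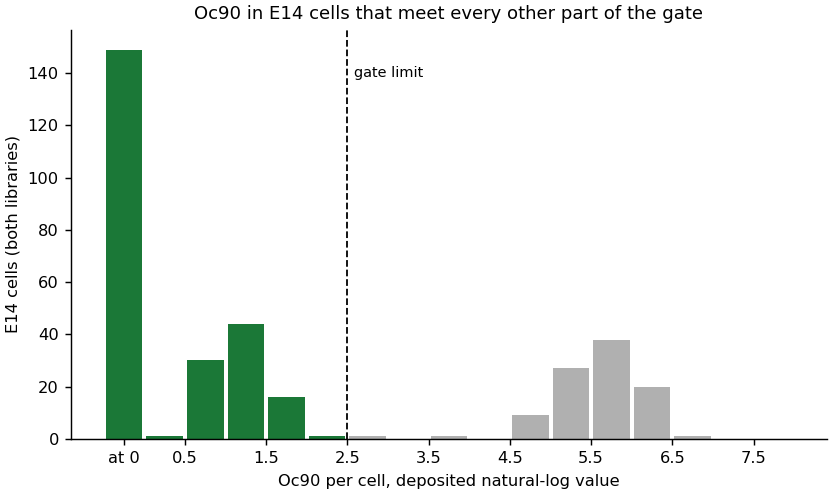
Number of E14 cells of both libraries (y axis) by their deposited natural-log Oc90 value (x axis, first bar for cells at 0), among cells that met every other part of the gate. The 241 cells left of the dashed limit (green) were kept, 149 of them with no Oc90, and most of the 97 cells to its right (grey) lay above 4.5.

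The Oc90 limit fell in a sparsely filled stretch, as the histogram of Oc90 shows. The highest values inside it were 2.38, 1.95 and 1.93, and the lowest outside were 2.78, 3.89 and 4.67. Of the 416 Otoa-positive E14 cells, 139 had Oc90 at or above the limit, and 97 of these met every other part of the gate. By construction the gated cells averaged 403 and 388 counts per 1000000 UMIs of the cell (CPM) for Otoa in replicates 1 and 2, against 15.5 and 10.3 in the other cells. Smoc2, a secreted matricellular protein, stood at 1118 and 1143 CPM against 180 and 178 CPM. Foxq1, a forkhead transcription factor, stood at 311 and 373 CPM against 44.7 and 50.7 CPM. These values describe the gate, and the 6 genes took no part in any test.

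Aldh1a3, which encodes a retinaldehyde dehydrogenase that makes retinoic acid, was the sole marker given for this cell type that the gate did not use. Aldh1a3 was picked with earlier results of these data known. It was not called under the same gate at P1 (log2 difference 0.09), so that it checks the label only weakly. It averaged 135 CPM in the gated cells of replicate 1 and 80.4 CPM in those of replicate 2, against 15.2 and 10.98 CPM in the other cells. Both gated values lay above both others, with a log2 difference of 2.32 (standard error 0.27, limma's adjusted p = 8.12e-06). With every cell randomly reduced to 1500 UMIs, Aldh1a3 was detected in 36 of 241 gated cells (14.9%, exact 95% interval 10.7% to 20.1%) and 80 of 5012 other cells (1.596%, 1.27% to 1.98%). At full depth the shares were 29.9% and 3.57%. In cells with Oc90 at or above 2.5, a gene known from the duct roof, 1.09% had an Aldh1a3 UMI at the reduced depth. These intervals cover counting error only.

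To ask what else sets the gated cells apart, their mean level per library was compared with that of all other E14 cells for the 8932 genes that averaged 10 CPM or more over the E14 groups. Pla2r1, Fbp2, 1500015O10Rik, Gsn and Cdkn1c were among the genes that were higher in the gated cells, and the transcription factor genes Gata2 and Isl1 and the follistatin gene Fst were among those that were lower. In limma's test with library as a block, 240 genes (2.69%) were higher and 325 (3.64%) were lower at an adjusted p of 0.05, and the median log2 difference over all genes was 0.01. Fold changes are on the log2(CPM + 10) scale, which understates those of weakly detected genes. With replicate 1 left out 72 genes were higher and 128 lower, and with replicate 2 left out 106 and 139. In these and all later counts with a library left out, 1 E14 library remained, which was assumed to vary like the E16 and P1 libraries that supplied the spread. With the other cells under the same limits on Atoh1, Bmp4 and Oc90 they were 219 and 199, with all cells at 1500 UMIs they were 35 and 95 from 103 gated cells, and without the library block they were 57 and 102. With the other cells weighted to the UMI depth of the gated cells, 249 genes were higher and 349 lower, of which 233 and 316 were among the 240 and 325. The filter averages over the gated cells, so that a weak gene can enter through the group where it is high: with the filter on the whole library instead, 214 genes were higher and 398 lower, and 29 of the 240 were not tested, Man1c1, Svopl and Tmprss4 among them.

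The 16 genes with the largest rise are taken by their known roles, beginning with the cell surface, sugar metabolism and secretion. Pla2r1 (chr2:60417543-60553308), a membrane receptor for secreted phospholipases A2, averaged 124 and 178 CPM in the gated cells and 11.6 and 18.7 CPM in the others (log2 difference 2.68, standard error 0.21, limma's adjusted p = 3.79e-08). Fbp2 (chr13:62836877-62858422), the muscle form of fructose-1,6-bisphosphatase, averaged 121 and 130 CPM against 12.1 and 13.8 CPM (log2 difference 2.57, standard error 0.29, limma's adjusted p = 4.91e-06). With all cells at 1500 UMIs limma's adjusted p of Fbp2 was 0.0895. Man1c1 (chr4:134561690-134704290), a Golgi mannosidase that trims N-linked sugars, averaged 78.1 and 46.5 CPM against 3.76 and 3.77 CPM (log2 difference 2.36, standard error 0.37). Man1c1 entered the test only through its level in the gated cells, so that its values are given as a description. The gene 1500015O10Rik (chr1:43730602-43742578), also named Ecrg4 and coding for the secreted peptide precursor augurin, averaged 4235 and 3753 CPM against 731 and 852 CPM (log2 difference 2.32, standard error 0.12, limma's adjusted p = 4.93e-10).

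Other genes of this group act on the cytoskeleton. Gelsolin (Gsn), which severs actin filaments, averaged 1104 and 1018 CPM in the gated cells against 283 and 268 CPM, a ratio of 3.85. Beta-tropomyosin (Tpm2) averaged 124 CPM in the gated cells of replicate 1 and 273 CPM in those of replicate 2, against 32.2 and 36.7 CPM. Its log2 difference was 1.67 in the first library and 2.60 in the second, so that the libraries agreed in direction and differed in size. Espn, the actin-bundling protein espin known from stereocilia, averaged 112 and 117 CPM against 28.1 and 29.6 CPM. The microtubule-associated gene Eml1 was higher by 1.85 on the log2 scale. For all 4 genes the gated values of both libraries lay above those of the other cells, and limma's adjusted p ran from 3.11e-08 for Gsn to 0.000271 for Eml1. With all cells at 1500 UMIs, limma's adjusted p was 0.310 for Tpm2, 0.258 for Eml1 and 0.203 for Espn.

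The rest of the 16 were matrix, adhesion and membrane genes and kinase regulators. Ltbp4, a latent TGF-beta binding protein of elastic fibres, averaged 158 and 110 CPM against 26.5 and 26.9 CPM. Smoc1, a relative of the gate gene Smoc2, averaged 123 and 137 CPM against 27.3 and 31.2 CPM. Cdkn1c, which encodes the cyclin-dependent kinase inhibitor p57Kip2, averaged 2898 and 2788 CPM against 817 and 755 CPM (log2 difference 1.84, standard error 0.15, limma's adjusted p = 6.30e-08). The other five were the putative transporter gene Svopl (log2 difference 2.13), the membrane serine protease gene Tmprss4 (1.84), the kinase gene Cdk15 (1.75), the protocadherin gene Pcdh9 (1.70) and Aldh1a3. Svopl, at 4.86 and 6.23 CPM in the other cells, and Tmprss4, at 3.97 and 1.65 CPM, entered the test only through the gated cells, and their differences too are descriptions. Cdk15 and Pcdh9 missed the threshold with all cells at 1500 UMIs (limma's adjusted p = 0.206 and 0.203).

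**Figure D2:**
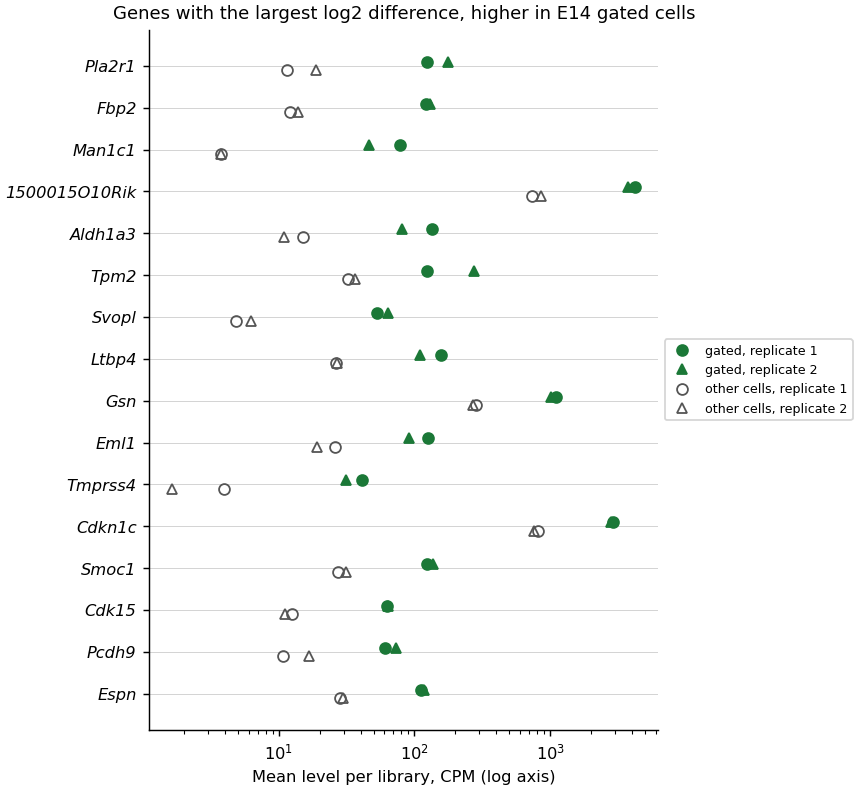
Mean level in CPM (log x axis) of the 16 genes with the largest higher log2 difference, for gated cells (filled) and all other E14 cells (open) of replicate 1 (circles) and replicate 2 (triangles). In every gene both gated values lie to the right of both others, from 31.1 CPM for Tmprss4 in replicate 2 to 4235 CPM for 1500015O10Rik in replicate 1.

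The sequences around the RefSeq start of Otoa and of the 2 genes with the largest rise are shown because Foxq1, a forkhead protein, is part of the gate. They come from RefSeq (GRCm38.p6), cover 300 bases from before to just after the start of the RefSeq entry and run 5′ to 3′ on the gene's strand. The Otoa entry starts inside the longer span that GENCODE gives that gene (chr7:121081650-121163097), so that its stretch does not reach the GENCODE start. Capitals mark the forkhead core TGTTTA on either strand, so that its reverse complement TAAACA counts as well. Otoa is on the plus strand at chr7:121083174-121083473, Pla2r1 on the minus strand at chr2:60553259-60553558 and Fbp2 on the minus strand at chr13:62858351-62858650.
Otoa: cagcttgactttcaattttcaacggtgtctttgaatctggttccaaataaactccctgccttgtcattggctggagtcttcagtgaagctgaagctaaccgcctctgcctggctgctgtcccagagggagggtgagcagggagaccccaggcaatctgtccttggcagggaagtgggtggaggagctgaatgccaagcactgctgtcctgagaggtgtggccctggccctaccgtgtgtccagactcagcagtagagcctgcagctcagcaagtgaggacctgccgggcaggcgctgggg
Pla2r1: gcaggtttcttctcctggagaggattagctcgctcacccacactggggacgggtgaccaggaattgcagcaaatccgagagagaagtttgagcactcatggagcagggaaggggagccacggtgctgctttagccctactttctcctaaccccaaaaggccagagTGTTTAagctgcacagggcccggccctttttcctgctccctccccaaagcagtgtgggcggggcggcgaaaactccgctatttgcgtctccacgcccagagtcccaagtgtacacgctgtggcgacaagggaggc
Fbp2: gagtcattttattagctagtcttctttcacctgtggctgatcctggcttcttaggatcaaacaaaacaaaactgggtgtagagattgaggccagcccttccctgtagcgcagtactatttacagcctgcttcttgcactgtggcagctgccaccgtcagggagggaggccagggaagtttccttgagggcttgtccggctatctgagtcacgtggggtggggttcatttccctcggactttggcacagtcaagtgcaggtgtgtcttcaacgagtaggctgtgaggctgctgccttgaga
The core occurred once in the Pla2r1 stretch and in neither of the others. Entries were found for 12 of the 16 genes, and Pla2r1 alone held a match. Of the 240 higher genes 179 had an entry, and 14 of these (7.82%) held the core, beside 546 of 6895 tested genes (7.92%) and 3618 of 27025 genes in the whole table (13.4%). A match is a run of letters and is no measure of binding.

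The 10 genes with the largest fall included known regulators of the otic epithelium. Gata2, a zinc-finger transcription factor, averaged 4.71 CPM in the gated cells of replicate 1 and 0.598 CPM in those of replicate 2, against 279 and 199 CPM in the other cells. The gated cells held 3 Gata2 UMIs in all, which makes the pooled level of the other cells 123 times theirs with a counting interval of 42.1 to 596. Follistatin (Fst), a secreted antagonist of activins, averaged 1.32 and 1.78 CPM against 252 and 237 CPM. It too had 3 UMIs in the gated cells, and the pooled ratio was 127 with a counting interval of 43.5 to 617. Isl1, a LIM transcription factor of the prosensory domain, averaged 50.9 and 39.8 CPM against 516 and 443 CPM (log2 difference -3.15, standard error 0.30, limma's adjusted p = 6.29e-07).

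Socs2, a suppressor of cytokine signalling, averaged 14.6 and 25.6 CPM in the gated cells against 398 and 366 CPM. The calcium-binding protein gene S100a1 averaged 7.69 and 7.65 CPM against 202 and 187 CPM, and carbonic anhydrase 2 (Car2) averaged 11.9 and 11.8 CPM against 207 and 164 CPM. Tectb, which encodes the tectorial membrane protein beta-tectorin, averaged 27.7 CPM in the gated cells of replicate 1 and 6.42 CPM in those of replicate 2, against 182 and 233 CPM. Ecel1, a membrane metalloprotease gene, was at 0 and 6.07 CPM against 86.9 and 118 CPM. Cells with Oc90 at or above 2.5, which the gate excludes, averaged 499 and 583 CPM for Ecel1. They were 438 of the 465 other cells with an Ecel1 UMI at the reduced depth. The difference of Ecel1 therefore mostly describes the Oc90 limit of the gate. The tachykinin precursor gene Tac1 had 2 UMIs in the gated cells and 3543 in the others, and the noncoding gene 9230102O04Rik had 3 and 2539. Limma's adjusted p of the 10 genes lay between 3.15e-09 for Socs2 and 3.34e-05 for Tectb.

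**Figure D3:**
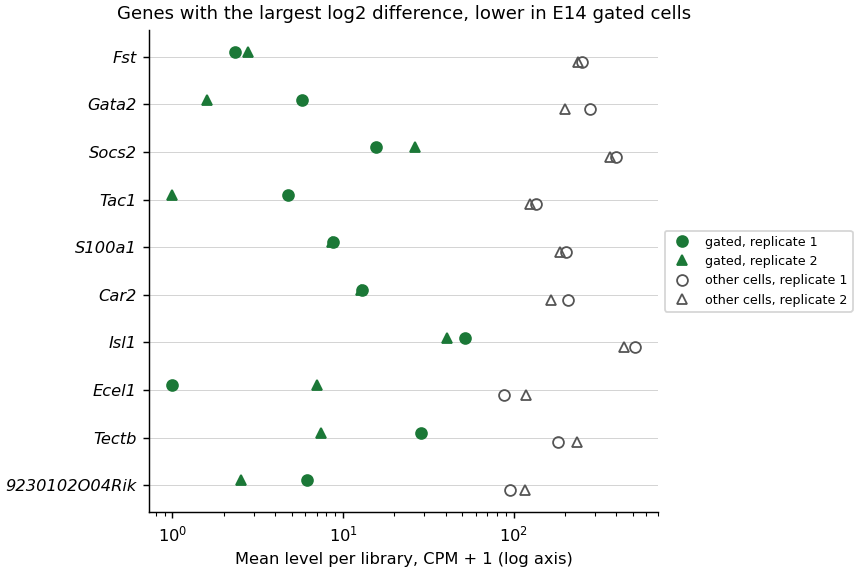
Mean level as CPM + 1 (log x axis) of the 10 genes with the largest lower log2 difference, drawn as for the higher genes: gated cells filled, other E14 cells open, circles for replicate 1 and triangles for replicate 2. Every gated value lies to the left of every open one, and Tac1 in replicate 2 and Ecel1 in replicate 1 sit at 0 CPM.

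Markers of the other cell types of the duct were counted next. All 5 prosensory markers tested were lower, as were all 6 tested markers of the lesser epithelial ridge, where 3.64% of all genes were lower. Their median log2 differences were -1.19 and -1.57. The gate removed Bmp4, Atoh1 and Oc90 cells, which bears on these lists, and with the other cells under the same limits 4 of 5 and 4 of 4 tested markers were lower. Without E14 replicate 1 the counts were 2 and 5, without replicate 2 they were 3 and 6, and at 1500 UMIs they were 1 and 3. Summed over the list, prosensory markers stood at 113 and 66.7 CPM in the gated cells against 702 and 568 CPM, with 1 of 8 markers at 0. Isl1 alone held 516 and 443 CPM of the sum in the other cells, so that the sum mostly describes Isl1. At full depth 50.6% of all other cells held an Isl1 UMI, so that it is not confined to prosensory cells. Markers of the lesser epithelial ridge summed to 1261 and 1060 CPM against 3081 and 2483 CPM. The gated sum was mostly Id2 (602 and 565 CPM) and Id3 (530 and 430 CPM), which are not confined to the ridge. At full depth 86.3% of all other cells held an Id2 UMI and 80.8% an Id3 UMI. Of 4 roof markers tested 3 were lower, among them Lmx1a at 0.848 and 4.88 CPM against 50.2 and 45.3 CPM. Under the same limits 1 of 2 tested roof markers was lower, and the count of 3 became 2 without replicate 1 and 1 at 1500 UMIs.

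Of 5 tested hair cell markers 2 were lower, and 1 of 4 under the same limits. The hair cell transcription factor gene Pou4f3 had no UMI in the gated cells, against 626 UMIs in the others, so that its pooled level was at least 11.3-fold lower against a floor of 3 UMIs over all gated cells. The gate excludes cells with Atoh1, an early hair cell gene, which bears on this value. Pcp4 had 1 UMI in the gated cells, and the other 3 tested hair cell markers did not pass the threshold. Of these Ccer2 stood at 67.1 and 89.6 CPM against 95.7 and 77.1 CPM and was found in 64 gated cells. The hair cell list summed to 111 and 168 CPM in the gated cells against 286 and 259 CPM, with 3 of 8 markers at 0, and 1 marker was lower with either E14 library left out or at 1500 UMIs. The mesenchymal matrix gene Postn was likewise at 0 (at least 13.6-fold lower), and the 8 mesenchyme markers summed to 4.43 and 1.48 CPM, with 5 of them at 0. At 1500 UMIs, 131 of the 138 other cells with a Postn UMI had Oc90 at or above 2.5. The gate excludes such cells, so that the fold of Postn is no measure of mesenchyme. All 4 immune markers were at 0. Haemoglobin genes summed to 35.3 and 0 CPM in the gated cells and to 40.9 and 0.936 CPM in the others, so that their level followed the library and not the gate.

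Other markers were found in the gated cells. Epyc, a small leucine-rich proteoglycan known from Kölliker's organ, averaged 1207 and 887 CPM against 509 and 429 CPM (log2 difference 1.13, standard error 0.09, limma's adjusted p = 6.00e-08). Of the 5 tested Kölliker's organ markers it alone was higher, while the retinoid-binding gene Crabp1 and the ligand gene Fgf10 were lower. Neither was called without replicate 1 or at 1500 UMIs. Summed, that list stood at 1387 and 1103 CPM against 802 and 666 CPM, with 1 of 6 markers at 0. Epyc alone held 1207 and 887 CPM of this against 509 and 429 CPM, so that the sum mostly describes Epyc. Stmn2, a microtubule regulator used as a neuronal marker, averaged 76.4 and 74.1 CPM against 15.1 and 22.4 CPM (log2 difference 1.58, standard error 0.28, limma's adjusted p = 0.000785). Stmn2 was not called without replicate 1 or at 1500 UMIs. The neuronal list summed to 83.3 and 77.3 CPM against 21.7 and 34.2 CPM, with 1 of its 3 measured genes at 0, and its part in the other differences was not tested.

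Pathway lists were then described by their counts, beside 2.69% higher and 3.64% lower over all genes tested. The FGF pathway had 7 of 11 tested members lower and none higher, with a median log2 difference of -0.95. The ligand genes Fgf10 and Fgf20 and the receptor genes Fgfr2 and Fgfr3 were among the lower ones, as were Dusp6, Etv4 and Etv5, which are known as transcriptional targets of FGF signalling. Fgf20 and Fgfr3 also belong to the prosensory list and Fgf10 to the Kölliker's organ list, so that these counts overlap. Fgfr2 had no UMI in the gated cells against 30.3 and 33.0 CPM in the others, at least 18.8-fold lower on pooled levels. Cells with Oc90 at or above 2.5, which the gate excludes, averaged 88.7 and 97.8 CPM for Fgfr2. They were 95 of the 191 other cells with an Fgfr2 UMI at 1500 UMIs, so that its fold partly describes the Oc90 limit. Fgf20, a prosensory ligand, averaged 2.59 and 0 CPM against 21.5 and 22.2 CPM. Etv4 averaged 2.502 and 2.76 CPM against 25.3 and 19.3 CPM, and Dusp6 averaged 32.5 and 15.5 CPM against 69.7 and 61.7 CPM. Fgf10 differed between the libraries, at 1.72 and 21.6 CPM in the gated cells against 24.3 and 30.1 CPM (limma's adjusted p = 0.0489). Fgfr1 stood at 120 and 135 CPM against 87.1 and 84.9 CPM and missed the threshold (limma's adjusted p = 0.0710). It was called higher in the E14 libraries alone, without cells of more than 3000 genes and with at least 2 Otoa UMIs (limma's adjusted p = 0.0129, 0.0473 and 0.0429). With the other cells under the same limits, 3 of 10 tested members were lower. Without E14 replicate 1, 2 of the 11 were lower, without replicate 2 there were 4, and at 1500 UMIs Fgfr2 alone was lower.

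In the BMP and TGF-beta list 8 of 22 tested members were lower and 2 were higher. Fst, Msx1, Id1, Id2 and Id3 also belong to the lesser epithelial ridge list, so that the counts of the 2 lists overlap. The 4 Id genes, which encode inhibitors of bHLH transcription factors and respond to BMP signals, were all lower. Id4 had the largest difference of the 4, at 49.7 and 31.2 CPM against 301 and 220 CPM (log2 difference -2.43, standard error 0.20, limma's adjusted p = 8.33e-08). Id1 averaged 118 and 58.4 CPM against 333 and 219 CPM, and Id2 and Id3 had log2 differences of -0.98 and -1.07. The inhibitory Smad gene Smad6 and the homeobox gene Msx1 were lower too, as were Fst and the repressor gene Tgif1. The higher ones were Ltbp4, given above, and the ligand gene Tgfb2, at 979 and 980 CPM against 696 and 733 CPM (limma's adjusted p = 0.0364). Bmp4 was a gate gene, and 5 members were lower and 1 was higher with the other cells under the same limits. The 8 lower members became 5 without replicate 1, 6 without replicate 2 and 4 at 1500 UMIs.

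The Wnt and Notch lists each had called members in both directions. Of 21 tested Wnt members 2 were higher, the R-spondin gene Rspo2 (150 and 90.3 CPM against 39.9 and 33.5 CPM) and the feedback inhibitor gene Nkd1 (153 and 131 CPM against 69.0 and 64.8 CPM). The R-spondin receptor gene Lgr5 was lower, with 3 UMIs in the gated cells and none of them in replicate 1, and so was the secreted antagonist gene Sfrp1 (log2 difference -0.31). Of 9 Notch members the repressor gene Hes1 was higher and its relative Hey1 was lower, at 35.0 and 31.8 CPM against 149 and 71.4 CPM. Hes1 missed the threshold with the other cells under the same limits (log2 difference 0.33, limma's adjusted p = 0.235). It also missed it at 1500 UMIs (log2 difference 0.60, limma's adjusted p = 0.258). Without replicate 1 no Wnt or Notch member was higher and 1 Wnt member was lower, and at 1500 UMIs no Wnt member was called. The growth factor gene Pdgfc was higher, at 360 and 332 CPM against 157 and 165 CPM (log2 difference 1.06, standard error 0.15, limma's adjusted p = 6.61e-05).

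Of 13 tested retinoic acid genes 2 were higher and 3 lower, and with the other cells under the same limits 2 of 11 were higher and 2 lower. Beside the synthesizing enzyme gene Aldh1a3, Stra6, which encodes a receptor for retinol uptake, was higher at 47.3 and 46.7 CPM against 17.5 and 16.1 CPM (log2 difference 1.09, limma's adjusted p = 0.00761). Cyp26a1, which encodes an enzyme that degrades retinoic acid, had 1 UMI in the gated cells and averaged 14.9 and 25.6 CPM in the others. Cells with Oc90 at or above 2.5, which the gate excludes, averaged 66.7 and 88.6 CPM for Cyp26a1. They were 85 of the 122 other cells with a Cyp26a1 UMI at 1500 UMIs. The binding protein gene Crabp1 averaged 17.6 and 13.0 CPM against 75.9 and 49.0 CPM, and the receptor gene Rxrg was lower (log2 difference -0.71, limma's adjusted p = 0.0484). With either library left out 1 gene of the list was higher and 1 lower, and at 1500 UMIs 1 was higher and none lower.

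**Figure D4:**
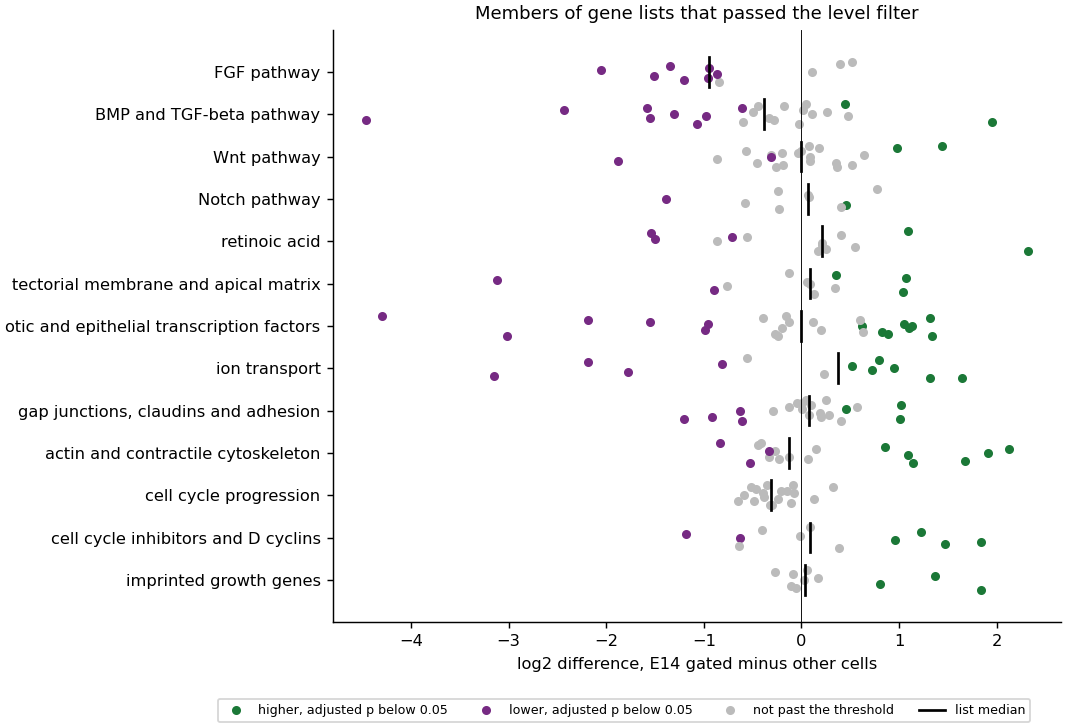
Log2 difference of E14 gated minus other cells (x axis) for each tested member of 13 gene lists (rows), coloured by limma's call at an adjusted p of 0.05, with a bar at the median of each list. The FGF row has its median at -0.95 and no higher member, while the cell cycle progression row has no called member.

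Genes of the tectorial membrane and apical matrix were called in both directions. Of 11 tested genes 3 were higher and 2 lower, with a median log2 difference of 0.08. The fibrillar collagen genes Col11a1 (232 and 198 CPM against 93.0 and 105 CPM) and Col11a2 (82.2 and 81.4 CPM against 32.0 and 35.2 CPM) were higher, as was Col9a2 by 0.36 on the log2 scale. Col9a1 was lower, at 353 and 289 CPM against 632 and 577 CPM, as was Tectb. Tecta, the gene of alpha-tectorin, stood at 414 and 549 CPM against 429 and 444 CPM and was not called (limma's adjusted p = 0.813), and its gated values lay on either side of the others. With the other cells under the same limits its log2 difference was -0.40. The 3 higher genes of the list became 1 without replicate 1 and 2 without replicate 2, and at 1500 UMIs 1 was higher and 1 lower. Among the small leucine-rich proteoglycans Epyc was the sole gene called, and Dcn, Lum and Ogn missed the threshold with log2 differences of 0.36, -0.17 and 0.67. The difference of Dcn was -0.089 with the other cells under the same limits. It was called higher with summed UMIs (0.48), with the other cells weighted for depth (0.47) and in the E14 libraries alone (0.36). Lum was called lower in the E14 libraries alone. Ogn entered the test only through its level in the gated cells, so that its difference is a description. That difference was 0.69 with summed UMIs and 1.18 with a pseudocount of 1 CPM.

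Ion transport genes were called in both directions, with 6 of 12 tested members higher and 4 lower. Slc12a2, the sodium-potassium-chloride cotransporter gene, averaged 285 and 449 CPM in the gated cells against 99.4 and 117 CPM (log2 difference 1.64, standard error 0.14, limma's adjusted p = 1.80e-07). The chloride channel family gene Clic6 (384 and 336 CPM against 177 and 187 CPM), the nucleotide-gated channel gene Cnga2, the calcium pump gene Atp2b1 and the sodium pump regulator genes Fxyd1 and Fxyd6 were higher as well. Among the lower members were the sodium pump beta subunit gene Atp1b1 (72.5 and 45.6 CPM against 231 and 213 CPM) and the carbonic anhydrase genes Car2 and Car13. With the other cells under the same limits 4 of 12 members were higher and 4 lower. Clic6 and Fxyd6 then missed the threshold (log2 differences 0.46 and 0.52, limma's adjusted p = 0.126 and 0.320). Without replicate 1 the list had 2 higher and 4 lower members, without replicate 2 it had 4 and 3, and at 1500 UMIs 1 and 2. Of the 21 tested junction and adhesion genes the claudin gene Cldn3 and the adhesion genes Jam3 and Cadm1 were higher. The claudin genes Cldn4 and Cldn8, the gap junction gene Gjb2 and the junction gene F11r were lower. Cldn4 is high in Oc90 cells, at 1136 and 1142 CPM, and with the other cells under the same limits its log2 difference was 0.10 and not past the threshold. No junction or adhesion gene was lower with either library left out, and 1 and 2 were higher without replicates 1 and 2.

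Of 17 tested actin and cytoskeleton genes 6 were higher, namely Tpm2, Gsn, Espn and the LIM-domain genes Pdlim2, Pdlim4 and Crip2. Crip2 averaged 1626 and 1671 CPM against 703 and 779 CPM. Tropomyosin 1 (Tpm1) and the simple-epithelial keratin genes Krt8 (330 and 342 CPM against 647 and 572 CPM) and Krt18 were lower. With the other cells under the same limits Tpm1, Krt8 and Krt18 missed the threshold (log2 differences -0.22, -0.43 and -0.07). The list then had 6 higher members, and 1 other member was lower. Pdlim4 was not among these 6 (log2 difference 0.72, limma's adjusted p = 0.239). Without replicate 1 the list had 4 higher and 0 lower members, without replicate 2 it had 4 and 1, and at 1500 UMIs 2 and 0. Of 14 dissociation stress genes tested, Junb and Jund were lower and none was higher (1 lower without replicate 1 and 0 without replicate 2, but 10 lower in a fit of the E14 libraries alone), and the median log2 difference of the list was -0.53. With the other cells under the same limits no stress gene was called. Summed, the stress list stood at 7332 and 5027 CPM in the gated cells against 8839 and 6718 CPM, higher in replicate 1 in both groups.

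None of the 18 cell cycle progression genes passed the threshold in limma's test, and their median log2 difference was -0.31. With the other cells under the same limits 2 were lower and the median was -0.61, with at least 2 Otoa UMIs 2 of 17 were lower, and with a pseudocount of 50 CPM 3 were lower. In the E14 libraries alone, without cells of more than 3000 genes and at 1500 UMIs, 1 was lower. Mki67 averaged 12.1 and 21.2 CPM against 20.4 and 25.6 CPM, and Top2a averaged 34.2 and 36.4 CPM against 34.3 and 51.7 CPM. Among inhibitors and D cyclins, Cdkn1c, Ccnd2, Rgcc and Ccng2 were higher and Cdkn1b and Btg1 were lower, out of 11 tested. Without replicate 1 the counts were 2 higher and 0 lower, and at 1500 UMIs 2 and 0. Ccnd2, a D cyclin gene that promotes entry into the cycle, averaged 149 and 86.5 CPM against 36.8 and 32.6 CPM. Cdkn1b, the p27Kip1 gene that marks the E14 prosensory domain, averaged 8.80 and 6.84 CPM against 33.4 and 27.8 CPM. Of 10 tested imprinted growth genes 3 were higher and none was lower: Cdkn1c, the noncoding RNA gene H19 (689 and 640 CPM against 254 and 250 CPM) and the growth factor gene Igf2 (182 and 160 CPM against 96.1 and 90.9 CPM). With either library left out, or at 1500 UMIs, 2 genes of the list were higher, with at least 2 Otoa UMIs 4 were, and with the other cells under the same limits 5 were.

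Among 24 tested otic and epithelial transcription factor genes 8 were higher and 6 lower. Nfib (296 and 347 CPM against 136 and 164 CPM), Tcf4 (176 and 232 CPM against 72.3 and 78.8 CPM), Klf2, Msc, Cited4 and the Sox genes Sox9, Sox4 and Sox11 were higher. Sox9 averaged 326 and 359 CPM against 172 and 206 CPM. Sox2, the prosensory Sox gene, was lower at 37.4 and 7.73 CPM against 71.0 and 28.8 CPM, and both libraries showed that direction although the gated value of replicate 1 exceeded the other cells of replicate 2. Gata3 averaged 40.4 and 27.4 CPM against 373 and 313 CPM (log2 difference -3.02, standard error 0.26, limma's adjusted p = 1.80e-07). Gata3 and 9230102O04Rik overlap on chromosome 2, so that reads may have been split between them. Without replicate 1 the list had 3 higher and 4 lower members, without replicate 2 it had 3 and 5, and at 1500 UMIs 1 and 2. With the other cells under the same limits it had 8 and 3 of 21, but the 8 were not all the same genes. Klf2 and Msc then missed the threshold (log2 differences 0.71 and 0.64, limma's adjusted p = 0.174 and 0.224). Lmx1a and the T-box gene Tbx3 were at a few UMIs in the gated cells.

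The gated cells were also compared with the 917 E14 cells with Oc90 at or above 2.5, some of which held Otoa as well. Against them 192 of 8949 genes (2.15%) were higher in the gated cells and 319 (3.56%) were lower. Without replicate 1 the counts were 43 and 125, and without replicate 2 they were 46 and 98. The genes with the largest rise were 1500015O10Rik (4235 and 3753 CPM against 124 and 102 CPM, log2 difference 5.03), Epyc (1207 and 887 CPM against 20.8 and 51.9 CPM, 4.58), the transcription factor gene Ebf1 (754 and 1016 CPM against 31.8 and 64.1 CPM, 3.99), the creatine kinase gene Ckb (800 and 704 CPM against 47.7 and 37.5 CPM, 3.86) and Slc12a2 (285 and 449 CPM against 13.7 and 22.2 CPM, 3.74). The thyroid hormone carrier gene Ttr was at 0 in the gated cells against 448 and 243 CPM, and the potassium channel tetramerization gene Kctd8 was at 0 against 259 and 263 CPM. Ecel1, the transporter gene Slc6a15 and Gata2 were the other genes with the largest fall. This comparison shares its gated cells with the one above, and the Oc90 cells are part of the other cells there, so that the 2 are not separate evidence for the genes that led the first. Of those genes that were tested here, Tpm2 (log2 difference 1.68), Fst, Isl1 and Tectb missed the threshold (limma's adjusted p = 0.0771, 0.0593, 0.321 and 0.982).

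The gated cells were then divided among themselves. Between the 149 cells with a Foxq1 UMI (57 and 92 by replicate) and the 92 without one, limma's test called 0 of 8790 genes (0.0%), with 282 genes at an unadjusted p under 0.05. Between cells with an Oc90 UMI and cells without one, where P1 replicate 3 had too few cells to enter the shared fit, it called 0 of 8823 genes (0.0%), with 133 at an unadjusted p under 0.05. The E14 groups held 37 to 92 cells per library, and a difference could go undetected at that size. Cdkn1c had the lowest p in the Foxq1 comparison, with a log2 difference of 0.56 (standard error 0.12, limma's adjusted p = 0.497). Aldh1a3 differed by 0.26 between cells with and without Foxq1 and by -0.36 between cells with and without Oc90, neither past the threshold.

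The same gate was applied to the later libraries, which the rule did not use. It kept 469 cells at E16 and 822 at P1, with Foxq1 detected in 11, 40 and 66 of the gated cells of the E16 libraries and in 28, 18, 11 and 19 at P1, so that the later cells passed mostly through Smoc2. Against all other cells of their age, 507 genes (5.68%) were higher and 993 (11.1%) lower at E16, and 614 (6.87%) and 1019 (11.4%) at P1. Of the 240 genes higher at E14, 152 were also higher at E16 (63.3% of the E14 genes and 30.0% of the E16 genes) and 116 at P1 (48.3% and 18.9%), while 8 were lower at E16 and 24 at P1. Of the 211 that also passed the filter on the whole library, 139 were higher at E16 and 105 at P1. Of the 325 lower genes 219 were also lower at E16 (67.4% and 22.1%) and 165 at P1 (50.8% and 16.2%), while 11 were higher at E16 and 29 at P1. Of the 13 leading higher genes that passed that filter 12 were higher at E16 and 10 at P1, and the 10 leading lower genes were lower at E16, with 9 of them lower at P1.

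The size of the contrast changed with age for part of these genes, as the plot of the same gate at 3 ages shows. A smaller share of the gated cells held Foxq1 at E16 and P1 than at E14. Age and the make-up of the gated cells therefore cannot be told apart here. Over all genes the contrast differed between E14 and E16 for 192 genes (2.15%) and between E14 and P1 for 571 (6.39%). Aldh1a3 fell from 2.32 at E14 to 0.79 at E16 and 0.09 at P1 on the log2 scale, and its gated cells averaged 19.3 ± 12.3 CPM (SD, 3 libraries) at E16 and 1.52 ± 1.44 CPM (SD, 4 libraries) at P1. Pla2r1 kept a difference of 2.07 at E16 and had none past the threshold at P1 (-0.06), where gated and other cells averaged 23.3 ± 13.8 and 23.3 ± 9.16 CPM. Espn was called higher at E14, was not called at E16 (0.12, limma's adjusted p = 0.741) and was called lower at P1 (-0.78, limma's adjusted p = 0.00190). Its level in the other cells was 81.4 ± 20.8 CPM at E16 and 135 ± 41.2 CPM at P1. Cdkn1c widened from 1.84 to 3.08 and 3.82, and its gated cells averaged 6805 ± 1876 CPM at E16 and 9441 ± 4318 CPM at P1.

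**Figure D5:**
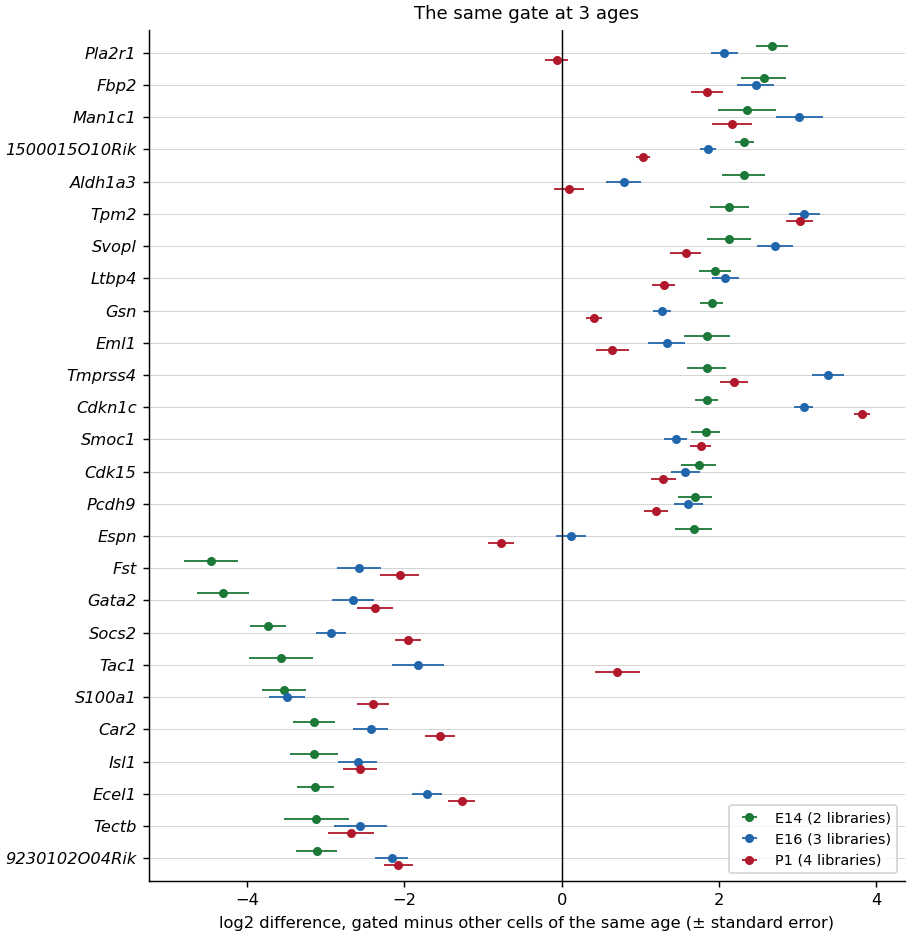
Log2 difference of gated minus other cells of the same age (x axis, with standard error from limma) for the 26 named genes at E14 (green, 2 libraries), E16 (blue, 3 libraries) and P1 (red, 4 libraries). Cdkn1c moves right from 1.84 to 3.82, while Aldh1a3, Pla2r1 and Espn move towards or past 0 by P1.

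Lists of genes that mark the study's own interdental clusters were set beside these counts. They were drawn by the study from these libraries, so that they are not independent evidence. Of 40 genes of the E14 list 39 were higher in the gated cells, with a median log2 difference of 1.30. Of the E16 list 32 of 38 tested genes were higher at E14, and of the P1 list 13 of 32 were higher and 3 were lower, with medians of 1.10 and 0.30. With the filter on the whole library these were 29 of 35, and 12 and 3 of 31, since the rest entered only through the gated cells. The higher genes of the 3 lists numbered 30, 19 and 5 without replicate 1, 31, 22 and 7 without replicate 2, and 22, 19 and 8 at 1500 UMIs. The E16 and P1 lists share 17 and 6 of their 40 genes with the E14 list.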

How the data were processed

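The authors aligned reads to mm10, counted UMIs and filtered and normalized cells (Cell Ranger 2.1.1 and Seurat 2.0 in the submitters' processing notes), and the deposited values are natural log values, ln(1 + 10000 times the fraction of a cell's UMIs on that gene). The log base was read from the values, since 100% of the implied UMIs were whole within 2%. The study's methods name a limit of 3000 genes that some deposited cells exceed, and all were kept. Gated cells held 1528 to 18449 UMIs.

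Levels are CPM averaged over the cells of a group in each library. Groups were compared in limma 3.58.1 (R 4.3.3) with a mean trend on log2(CPM + 10) and library as a block, in 1 fit over the E14, E16 and P1 libraries with 6 residual degrees of freedom (5 for Oc90 within the gate), for genes of at least 10 CPM over the E14 groups and without the 6 gate genes. Both groups of a block are cells of the same library, which is where the pairing comes from. Adjusted p is by Benjamini and Hochberg, over every gene in the fit, with a threshold of 0.05. P7 was left out of the fit, since nearly all P7 cells passed the gate through Foxq1.

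Named genes were the 16 largest higher and 10 largest lower called genes with 1 direction in both E14 libraries, 5 each way in the other comparisons, and members of 31 gene lists. Gate, Gm-numbered, ribosomal, mitochondrial and haemoglobin genes, Malat1, Xist and Tsix were not named by rank. The cells, lists and tests were chosen with earlier results of these data known. Gene positions are from GENCODE vM21 (GRCm38, the assembly of mm10). Profiles were made in Python 3.11.15 (numpy 2.4.6, pandas 2.3.3, scipy 1.17.1, matplotlib 3.10.9). Alternatives covered the pseudocount, filter, scaling, block, depth, gate and each E14 library. Free RNA was not corrected. One list member is not reported here.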

Additional observations from a re-analysis of the deposited data

Results flagged for a closer look

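For 12 of the 23 leading genes that also passed the filter on the whole library, the contrast of gated against other cells differed between ages in limma's test of that difference, given here as the later age minus E14 on the log2 scale. Between E14 and E16 it differed for Aldh1a3 (-1.52, adjusted p = 0.0226), Cdkn1c (1.23, 0.000812), Espn (-1.57, 0.00653), Fst (1.88, 0.0277), Gata2 (1.65, 0.0469) and Ecel1 (1.42, 0.0141). Tmprss4, which entered only through the E14 gated cells, differed by 1.54, given as a description. Between E14 and P1 it differed for Pla2r1 (-2.74, 4.07e-07), 1500015O10Rik (-1.29, 8.81e-06), Aldh1a3 (-2.23, 0.000166), Gsn (-1.49, 8.68e-06), Cdkn1c (1.98, 4.07e-07) and Espn (-2.46, 8.54e-06). The lower genes Fst (2.40, 0.000923), Gata2 (1.93, 0.00441), Socs2 (1.77, 0.000263), Tac1 (4.27, 7.70e-06), Car2 (1.602, 0.00371) and Ecel1 (1.86, 0.000216) also differed at P1, in each case towards a smaller gap, and Tac1 passed to 0.71, not past the threshold. The leading genes were picked for the largest differences at E14, which favours a smaller gap at another age. The other cells of each age are a different mixture, and a smaller share of the gated cells held Foxq1 at E16 and P1 than at E14. Cdkn1c averaged 6805 ± 1876 CPM in the gated cells and 782 ± 86.4 CPM in the others at E16 (SD, 3 libraries), and 9441 ± 4318 and 622 ± 172 CPM at P1 (SD, 4 libraries). Espn averaged 87.8 ± 13.1 CPM in the gated cells and 81.4 ± 20.8 CPM in the others at E16, and 75.6 ± 31.6 and 135 ± 41.2 CPM at P1.

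At P1, where there are 4 libraries, 2 of 52 sets of 4 values had a library far from the others, and chance alone gives about 1 in 20. Cdkn1c in the other cells of P1 replicate 4 was 365 CPM against 694 to 727 CPM, and S100a1 in the gated cells of P1 replicate 1 was 402 CPM against 63.6 to 121 CPM.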

How the results depend on the processing

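None of the 23 leading genes that passed the filter on the whole library changed direction under the 15 alternatives where it was tested, and Tectb (without the block), and Fbp2, Tpm2, Eml1, Cdk15, Pcdh9 and Espn (at 1500 UMIs) lost their call. Of 111 called genes that passed that filter, 48 lost it without E14 replicate 1, 33 without replicate 2, 51 without the replicate block and 63 at 1500 UMIs. The cause was not tested for these or the following, and the 1500 UMI setting also reapplied the gate, which left 44 and 59 gated cells of 103 and 138. Counts of genes are given as higher and lower. With one E14 library left out, gated against other cells gave 72 to 106 and 128 to 139, shared with E16 55 to 68 and 105 to 113, shared with P1 39 to 51 and 74 to 82, and against Oc90 cells 43 to 46 and 98 to 125. Without the replicate block, which pairs both groups of a library, these 4 comparisons gave 57 and 102, 36 and 76, 27 and 57, and 99 and 194. At 1500 UMIs they gave 35 and 95, 25 and 44, 21 and 42, and 40 and 94. The E14 libraries alone gave 405 and 502 against other cells and 1035 and 994 against Oc90 cells. Under the same limits on the other cells, 199 were lower and 143 of them also at E16. Against Oc90 cells 112 were higher with a pseudocount of 1 CPM, and 120 and 210 were called with no filter. Leading genes whose contrast differed between E14 and E16, 7 as reported with Tmprss4, numbered 2 with that pseudocount, 0 with no filter, 0 without the block, 1 at 1500 UMIs, 2 under the same limits and 0 to 1 with a library left out, and those differing at P1, 12 as reported, were 6 at 1500 UMIs. Among gated cells, the Foxq1 comparison called 3 genes with no filter and 2 in the E14 libraries alone, and the Oc90 comparison called 2 in the E14 libraries alone and 1 at 1500 UMIs. Reversed directions were those of Tecta with one E14 library left out (-0.050 to 0.30), under the same limits (-0.40) and with at least 2 Otoa UMIs (-0.027), and of Dcn (-0.089) and Cldn4 (0.10) under the same limits. Without the block, list counts of higher and lower members included 0 and 3 (FGF), 1 and 4 (BMP and TGF-beta), 0 and 0 (tectorial membrane and Notch), 1 and 5 (transcription factors), 1 and 0 (adhesion), 2 and 3 (ion transport), 4 and 0 (actin), 1 and 1 (retinoic acid) and 0 and 3 (prosensory, and lesser epithelial ridge).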

Other observations

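At P7 the gate kept 139 cells of the library numbered 4 and 108 of the library numbered 5, and Foxq1 without Smoc2 carried 137 and 106 of them. Of the 16 genes that were most raised at E14, 3 were higher in the P7 gated cells of both libraries. Fbp2, Aldh1a3 and Tmprss4 stood at 2.38 CPM or less in every P7 group, too low to compare. Pla2r1 averaged 58.6 and 85.6 CPM against 19.2 and 31.8 CPM, Ltbp4 averaged 120 and 138 CPM against 65.5 and 62.5 CPM, and Gsn averaged 4976 and 3522 CPM against 2639 and 1539 CPM. Cdkn1c (62.2 and 21.2 CPM against 181 and 217 CPM) and Espn (16.7 and 21.2 CPM against 74.4 and 77.7 CPM) were lower in both libraries, as were Tpm2, Eml1, Smoc1, Pcdh9 and Svopl at under 12 CPM in every group. Of the leading lower genes, Socs2 (1874 and 1618 CPM against 1106 and 878 CPM), Isl1 (812 and 684 CPM against 605 and 420 CPM) and Tectb were higher in both, and 6 of the 10 were lower in both: Fst (5.71 and 6.20 CPM against 76.9 and 44.7 CPM), Gata2, Tac1, S100a1, Car2 and Ecel1. Tectb, lower at the 3 earlier ages, averaged 12430 and 11670 CPM in the P7 gated cells against 8962 and 6905 CPM. No test was run on the P7 libraries. The share of all genes that were higher or lower in both was not computed, so that these counts are descriptions.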
